A study of Homo sapiens with 18 samples.

Results

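The genotype by interferon interaction is the change over 12 h of interferon in SP100 knockout (KO) cells minus the same change in wild-type (WT) cells. The cells were NIKS, a normal immortalized keratinocyte line of human origin, kept on irradiated mouse fibroblasts (J2/3T3). Of 18 RNA sequencing libraries, 12 carry it, with 3 biological replicates in each of 4 groups: untreated WT, untreated KO, and WT and KO after 12 h with 25 ng/mL of human interferon alpha 2a. The untreated groups are called 0 h. The other 6 libraries, WT and KO after 48 h in interferon, entered the estimate of the spread between replicates, and the genotypes were compared in them as well. The table heads its WT columns Vec2 and its KO columns KO5, which gives 1 cell line for each genotype; the labels call the Vec2 samples WT and do not say what Vec2 stands for or whether these are the parental NIKS cells. Thus the knockout cannot be told apart from whatever else sets the 2 lines apart. No untreated library at 12 h was analysed, so interferon and time in culture cannot be told apart either. The labels call the replicates biological and do not say how the cultures were separated, and p-values measure the spread between these samples.

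Type I interferons bind the IFNAR1 and IFNAR2 receptor, whose kinases JAK1 and TYK2 activate the transcription factor complex ISGF3, of which IRF9 is a subunit. ISGF3 binds interferon-stimulated response elements near interferon-stimulated genes and turns these genes on. Many such genes are also transcribed at a low level before interferon is added. SP100 is a component of PML nuclear bodies, is itself interferon-stimulated, and is known for restricting incoming viral DNA. An interaction can therefore come from a difference between the genotypes that is present before interferon, from one that appears in interferon, or from both, and the differences at 0 h and at 12 h were set side by side for each gene.

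Values are RPKM, reads per kilobase of transcript scaled to the library's total, and differences are in log2(RPKM + 1), which understates the change of low genes. In this bulk RNA, fewer cells of a type and less RNA per cell cannot be told apart. The number of reads per library is unknown, and relative depth recovered from low values spanned a 1.49-fold range. Across genes, log2 values of replicate libraries had a Pearson correlation of 0.985 to 0.989. SP100 itself was at 30.1, 31.9 and 27.9 RPKM in untreated WT and at 16.0, 14.2 and 15.2 in untreated KO. At 12 h it was at 156, 172 and 151 RPKM in WT and at 93.2, 86.5 and 87.5 in KO, so the KO level was 50.5% of WT before interferon and 55.9% after it. The groups did not overlap at either time. The labels do not say how SP100 was disrupted, and RNA does not measure the protein. The interaction of SP100 was 0.11 (SE 0.083, limma adjusted p = 0.945, 95% interval −0.07 to 0.29).

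Of 13280 genes tested, 10 passed the threshold for the interaction (limma, Benjamini-Hochberg adjusted p under 0.05), all with a value above 0. These were IFIT1 (ENSG00000185745), OASL (ENSG00000135114), IFI44 (ENSG00000137965), IFIT3 (ENSG00000119917), MX1 (ENSG00000157601), IFIT2 (ENSG00000119922), ISG15 (ENSG00000187608), IGF2 (ENSG00000167244), INHBA (ENSG00000122641) and HERC5 (ENSG00000138646), and they make up 0.0753% of the genes tested. Of these, 8 are interferon-stimulated genes whose interferon change was larger in KO than in WT on the log2 scale. The other two, IGF2 and INHBA, encode secreted growth factors and fell in interferon in WT, with a smaller change in KO that did not pass the test. At an unadjusted p under 0.05, 301 genes (2.27%) were above 0 and 463 (3.49%) below 0. With a mean RPKM of at least 5 as the filter, 14 genes passed, 10 above 0 and 4 below 0, the latter being OAS2, PSAT1, EHF and DEFB1.

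The genotypes differed at 0 h at 375 genes that were higher in KO (2.82%) and 275 that were lower (2.07%). At 12 h 213 were higher (1.60%) and 268 lower (2.02%). With median-of-ratios scaling the 0 h counts were 276 higher and 313 lower. Interferon raised 2005 genes in WT (15.1%) and 2123 in KO (16.0%), and lowered 3959 and 4362. Under that scaling interferon raised 2892 genes and lowered 2717 in WT, and raised 3153 and lowered 3040 in KO.

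Stretches of promoter are shown for 6 of the called interferon-stimulated genes, because the letters that an interferon-stimulated response element is built on can be read in them. They come from RefSeq on GRCh38.p14, each on the plus strand, and each ends at or before an annotated start of the gene. Where several starts were listed for a gene, the first one with a match before it was used. They lie at chr10:89392472-89392564 (IFIT1), chr10:89327806-89327919 (IFIT3), chr1:78649736-78649788 (IFI44), chr21:41431819-41431898 (MX1), chr1:1013349-1013434 (ISG15) and chr4:88456959-88457089 (HERC5). Capitals mark every match to GAAANNGAAA, read on either strand, so that a match on the opposite strand appears as TTTCNNTTTC; overlapping matches run together.
IFIT1: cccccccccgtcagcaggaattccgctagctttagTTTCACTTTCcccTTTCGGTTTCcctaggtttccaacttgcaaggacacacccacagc
IFIT3: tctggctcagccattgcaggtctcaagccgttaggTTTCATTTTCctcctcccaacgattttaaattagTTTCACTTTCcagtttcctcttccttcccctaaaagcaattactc
IFI44: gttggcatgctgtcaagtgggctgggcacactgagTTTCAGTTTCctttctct
MX1: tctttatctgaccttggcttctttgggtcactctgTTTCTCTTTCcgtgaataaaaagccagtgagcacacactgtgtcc
ISG15: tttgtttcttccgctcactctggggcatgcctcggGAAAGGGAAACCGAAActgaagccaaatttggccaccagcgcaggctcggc
HERC5: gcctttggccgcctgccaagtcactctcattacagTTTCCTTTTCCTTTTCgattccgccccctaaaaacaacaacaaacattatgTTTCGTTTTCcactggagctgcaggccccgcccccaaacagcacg
The IFI44 match began 18 bases before the start used, the ISG15 matches 113 and 107 bases before theirs, and the MX1 match 196 bases before its own. A window from 250 bases before to 50 after the start held the letters in 3.57% of all 35116 promoters of the RefSeq table and in 3.94% of the 9653 tested genes that matched it. A gene was counted if the window of any of its listed starts held the letters. Of the 10 called genes 7 matched the table and 6 held the letters, the exception being INHBA. Of 97 tested members of 12 lists of interferon pathway genes 75 matched and 42 held them (56.0%). A match describes the letters in this window and is not a measured binding site.

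**Figure D1:**
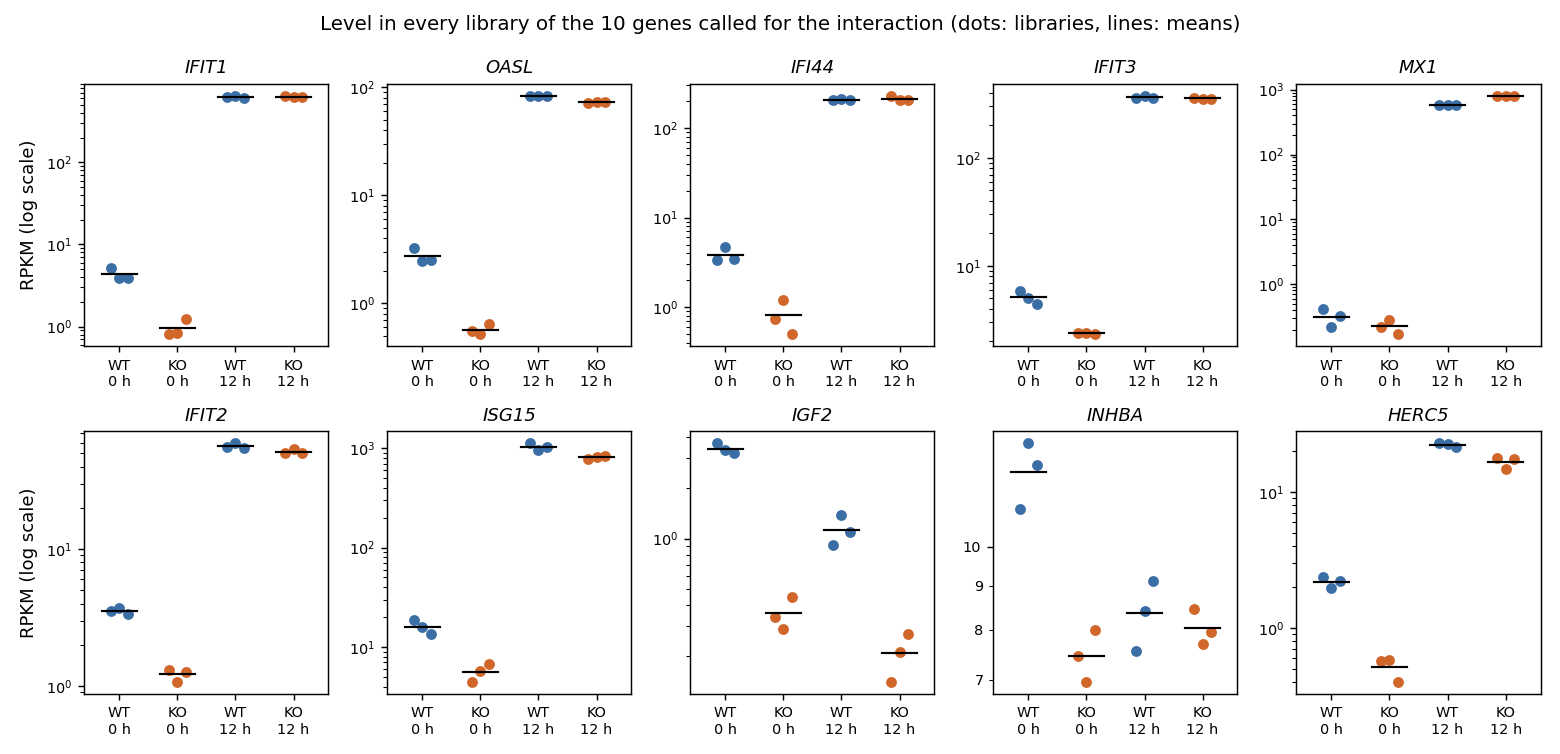
RPKM (log scale, a different range in each panel) of the 10 genes called for the interaction in each library of the 4 groups; dots are libraries and lines are means of 3. In 9 of the 10 panels the untreated KO libraries sit below all untreated WT libraries, while for MX1 it is the 12 h groups that are apart and the untreated groups overlap.

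The IFIT proteins, encoded by a cluster of interferon-stimulated genes, recognise viral RNA and hold back its translation. IFIT1 was at 5.15, 3.86 and 3.94 RPKM in untreated WT and at 0.81, 0.83 and 1.22 in untreated KO. After 12 h it was at 618, 650 and 613 RPKM in WT and at 635, 629 and 621 in KO. The untreated groups were apart, with KO at 22.1% of WT, and the groups in interferon overlapped, with KO at 100% of WT. The interaction was 1.45 (SE 0.112, limma adjusted p = 1.34e-05), made of a KO minus WT difference of −1.44 at 0 h (SE 0.079, adjusted p = 1.43e-08) and one of 0.004 at 12 h (95% interval −0.17 to 0.17).

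IFIT2 and IFIT3 had the same form at smaller size. IFIT3 was at 5.82, 5.07 and 4.41 RPKM in untreated WT and at 2.39, 2.38 and 2.33 in untreated KO, and at 356, 377 and 358 in WT against 361, 349 and 354 in KO at 12 h. Its interaction was 0.81 (SE 0.088, limma adjusted p = 0.000305), with −0.85 at 0 h and −0.04 at 12 h (95% interval −0.17 to 0.10). IFIT2 was at 3.51, 3.70 and 3.35 RPKM in untreated WT and at 1.3, 1.07 and 1.27 in untreated KO. At 12 h IFIT2 was at 56.0, 59.3 and 55.2 RPKM in WT and at 50.1, 53.8 and 50.4 in KO, groups that did not overlap although the difference of −0.14 did not pass the test (limma adjusted p = 0.455). The IFIT2 interaction was 0.89 (SE 0.125, adjusted p = 0.00616). Of the 4 IFIT genes tested, IFIT5 alone was not called for the interaction or for either genotype difference, so 3 of 4 passed against 0.0753% of all genes, and the list's median interaction was 0.85 against −0.01 over all genes tested.

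OASL is a relative of the 2′,5′-oligoadenylate synthetases that lacks their enzyme activity and enhances RIG-I signalling. It was at 3.25, 2.49 and 2.54 RPKM in untreated WT and at 0.56, 0.52 and 0.64 in untreated KO. After 12 h OASL was at 82.3, 82.8 and 83.6 RPKM in WT and at 71.9, 72.2 and 73.5 in KO. KO lay below WT without overlap at both times, at 20.8% of WT before interferon and at 87.5% in it. The interaction was 1.06 (SE 0.091, limma adjusted p = 2.81e-05), the difference at 0 h was −1.25 (adjusted p = 7.4e-09) and that at 12 h was −0.19 (adjusted p = 0.132; unadjusted 95% interval −0.33 to −0.05). With a pseudocount of 0.1 the OASL interaction was 1.89 (adjusted p = 6.06e-07).

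OAS2, an enzyme of the same family that makes 2′,5′-oligoadenylates to activate RNase L, had the opposite sign and did not pass for the interaction. OAS2 was at 6.82, 6.30 and 7.63 RPKM in untreated WT and at 12.4, 10.6 and 10.7 in untreated KO, and at 401, 439 and 444 in WT against 478, 461 and 483 in KO at 12 h. Here KO was above WT without overlap at both times. The difference was 0.63 at 0 h (limma adjusted p = 8.53e-06) and 0.15 at 12 h (adjusted p = 0.241), and the interaction was −0.48 (SE 0.088, adjusted p = 0.0556). In alternative fits the OAS2 interaction passed with a pseudocount of 0.1 (limma adjusted p = 0.0418) and with a mean RPKM of at least 5 (0.0355). It also passed without WT 0 h replicate 3 (0.0153). Of the 5 genes of the OAS and RNase L list, OASL was the only one called for the interaction, against 0.0753% of all genes. The list's median was −0.18. The interaction of OAS3 was −0.09 (SE 0.046, adjusted p = 0.892).

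ISG15 is a ubiquitin-like protein that is attached to other proteins in interferon, and HERC5 is the ligase that attaches it. ISG15 was at 18.5, 15.7 and 13.6 RPKM in untreated WT and at 4.46, 5.68 and 6.77 in untreated KO. In interferon ISG15 was at 1118, 950 and 1019 RPKM in WT and at 776, 821 and 826 in KO, so KO lay below WT at both times, at 35.4% and then at 78.4%. The interaction was 1.01 (SE 0.167, limma adjusted p = 0.0361), with −1.36 at 0 h (adjusted p = 2.16e-06) and −0.35 at 12 h (adjusted p = 0.133; unadjusted 95% interval −0.60 to −0.10). The adjusted p of the ISG15 interaction rose above the threshold in 12 of 19 alternative fits.

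HERC5 was at 2.37, 1.98 and 2.23 RPKM in untreated WT and at 0.57, 0.58 and 0.40 in untreated KO. In interferon HERC5 was at 23.0, 22.8 and 21.4 RPKM in WT and at 17.8, 14.8 and 17.7 in KO. KO was lower at both times, without overlap, and both differences passed the test: −1.07 at 0 h (limma adjusted p = 5.95e-07) and −0.40 at 12 h (adjusted p = 0.0103). The HERC5 interaction was 0.67 (SE 0.117, adjusted p = 0.0458) and lost its call in 15 of 19 alternative fits. With a pseudocount of 0.1 it was 1.48 (adjusted p = 0.000295). UBE2L6, the conjugating enzyme of the same pathway, was lower in untreated KO, with means of 12.1 RPKM against 14.3 in WT (difference −0.22, adjusted p = 0.0251). The interaction of UBE2L6 was 0.05 (SE 0.077, adjusted p = 0.989).

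IFI44 is an interferon-induced protein that has been linked to restricted virus growth. It was at 3.39, 4.66 and 3.47 RPKM in untreated WT and at 0.74, 1.19 and 0.50 in untreated KO. With interferon for 12 h IFI44 was at 206, 209 and 205 RPKM in WT and at 230, 204 and 205 in KO. The untreated groups were apart and the groups in interferon overlapped. The interaction was 1.47 (SE 0.155, limma adjusted p = 0.000305), with −1.43 at 0 h and 0.04 at 12 h (95% interval −0.19 to 0.27). With a pseudocount of 0.1 the interaction was 2.21 (adjusted p = 0.000585). IFI44 was the only one of 7 IFI genes called for the interaction, against 0.0753% of all genes. The median of the list was 0.08.

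MX1, a dynamin-like GTPase that blocks influenza and other viruses, was the only one of the 10 genes called at 12 h and not at 0 h. It was at 0.41, 0.22 and 0.32 RPKM in untreated WT and at 0.22, 0.28 and 0.17 in untreated KO. These groups overlapped, with the KO mean at 70.5% of WT. At 12 h it was at 577, 575 and 588 RPKM in WT and at 812, 804 and 808 in KO, with every KO library above every WT library and KO at 139% of WT. The difference at 0 h was −0.10 (limma adjusted p = 0.227) and that at 12 h was 0.48 (SE 0.045, adjusted p = 7.16e-06). The interaction was 0.58 (SE 0.064, limma adjusted p = 0.000311). The sum of both differences was 0.37 (limma adjusted p = 0.0011), so on the log2(RPKM + 1) scale the difference at 12 h was the larger in size. At untreated values this low, the 1 added to RPKM understates the 0 h difference. With a pseudocount of 0.1 in place of 1, the 0 h difference in MX1 was −0.35 and the interaction 0.83 (adjusted p = 0.133), which ended the call. The difference at 12 h kept its call at that setting (adjusted p = 0.0455).

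IGF2, insulin-like growth factor 2, is a secreted growth factor of the insulin family, and it had the largest 0 h difference of the called genes. It was at 3.69, 3.37 and 3.24 RPKM in untreated WT and at 0.34, 0.29 and 0.45 in untreated KO. In interferon IGF2 was at 0.91, 1.38 and 1.09 RPKM in WT and at 0.14, 0.21 and 0.27 in KO. KO was below WT without overlap at both times, at 10.5% and at 18.3% of WT. Interferon lowered IGF2 in WT by 1.06 on the log2 scale (limma adjusted p = 1.23e-06), and its change in KO was −0.17 (adjusted p = 0.206). The interaction was 0.89 (SE 0.153, limma adjusted p = 0.0458) and lost its call in 15 of the 18 alternative fits that tested IGF2. With a pseudocount of 0.1 it was 0.95 and did not pass (limma adjusted p = 0.753). Untreated KO was under 1 RPKM, which leaves little room for a fall in KO on the log2(RPKM + 1) scale. Both IGF2 differences passed, −1.71 at 0 h (adjusted p = 5.59e-08) and −0.81 at 12 h (adjusted p = 0.000263). The IGF2 locus overlaps a read-through gene with INS, and how reads were shared between them is not given in the sources used here.

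INHBA encodes the subunit of activin A, a member of the TGF-beta family that keratinocytes secrete. It was at 11.1, 13.2 and 12.4 RPKM in untreated WT and at 7.45, 6.96 and 7.99 in untreated KO. At 12 h it was at 7.56, 8.41 and 9.12 RPKM in WT and at 8.47, 7.71 and 7.95 in KO, so groups that were apart before interferon overlapped after it. Interferon lowered INHBA in WT by 0.50 (limma adjusted p = 5.05e-05), and the change in KO was 0.10 (adjusted p = 0.299). The interaction was 0.59 (SE 0.103, adjusted p = 0.0458), the difference at 0 h was −0.64 (adjusted p = 4.04e-05) and that at 12 h was −0.05 (95% interval −0.20 to 0.11). The INHBA call was lost in 12 of 19 alternative fits. FST, encoding follistatin, which binds and inactivates activin, was lower in untreated KO at a mean of 40.1 against 53.2 RPKM (difference −0.40, adjusted p = 0.0231). The interaction of FST was 0.52 (SE 0.135, adjusted p = 0.387). Of the 16 genes tested in the list of activin, TGF-beta and IGF genes, INHBA and IGF2 were called for the interaction, against 0.0753% of all genes. The list was chosen with earlier results of these data known, so this share describes its genes and does not test them. The list's median was −0.04.

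**Figure D2:**
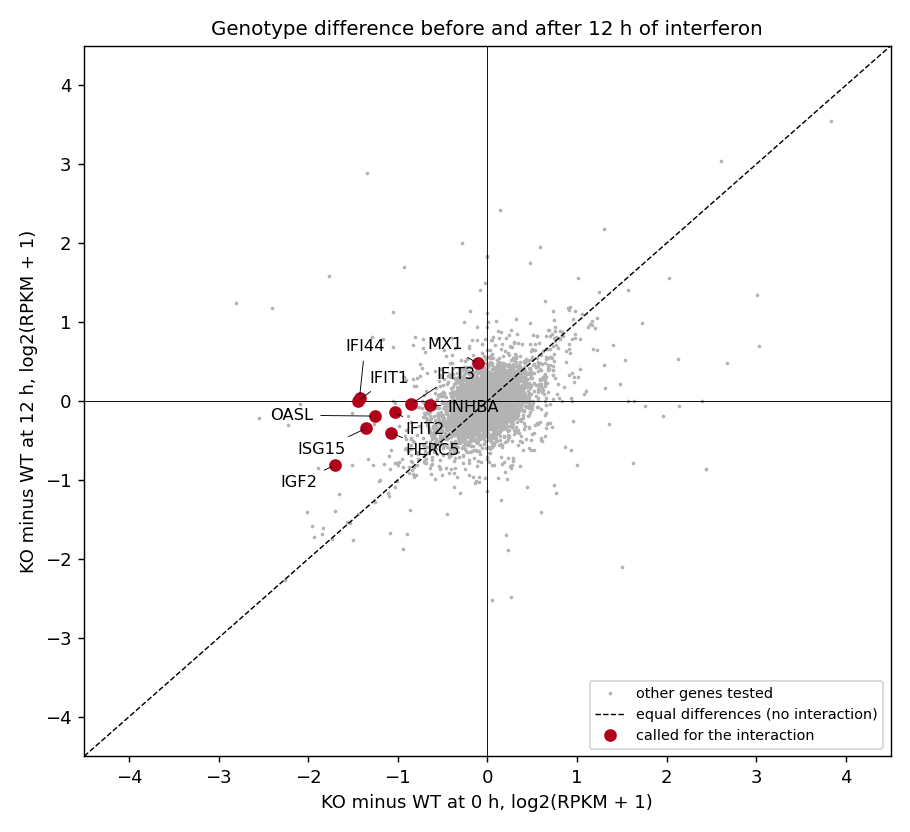
KO minus WT difference at 0 h (x axis) and at 12 h (y axis), both in log2(RPKM + 1), for every gene tested (grey) and the 10 genes called for the interaction (red); the dashed line marks equal differences. Of the called genes, 9 lie left of 0 with a smaller difference at 12 h, and MX1 lies near 0 on the x axis at 0.48 on the y axis.

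Where each interaction arose was read from the calls at the 2 times. Of the 10 genes, 7 passed the test between the genotypes at 0 h only (IFIT1, OASL, IFI44, IFIT3, IFIT2, ISG15 and INHBA), 1 at 12 h only (MX1) and 2 at both times (IGF2 and HERC5). In 9 of 10 the difference was larger in size at 0 h, and at 0 h each of these 9 was lower in KO. Their untreated groups did not overlap, as was the case for 23.6% of all genes, and the 12 h groups did not overlap for 6 of 10, against 21.0% of all genes. The interaction is built from these same differences, so the calls at 0 and 12 h describe the 10 genes and do not test them again. The part of the interaction contributed by the 0 h difference was 99.8% for IFIT1, 97.2% for IFI44 and 18.0% for MX1. It was above 100% where the 12 h estimate was also lower in KO: 104.5% for IFIT3, 108% for INHBA and 116.0% for IFIT2. For OASL it was 117.9%, for ISG15 134.4%, for HERC5 160.3% and for IGF2 191.1%. The MX1 share depends on the pseudocount: with 0.1 in place of 1 its differences were −0.35 at 0 h and 0.48 at 12 h. The estimates for IFIT1, IFI44 and MX1 had opposite signs at the 2 times. The sum of the 2 differences was −1.44 for IFIT1 and −1.39 for IFI44 and passed for both (limma adjusted p = 3.23e-07 and 1.73e-05), so their 0 h difference was the larger in size. Over all genes that sum was below 0 at 644 called genes (4.85%) and above 0 at 809, or 722 and 606 with median-of-ratios scaling. A gene called at 0 h only is not shown to lack a difference at 12 h. The groups of OASL, IFIT2 and ISG15 were apart at 12 h, and the unadjusted intervals of OASL and ISG15 lie below 0. Without WT 0 h replicate 1 the 12 h difference of OASL passed (−0.19, adjusted p = 0.0336).

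The genotype difference of the same genes was also tested at 48 h, in libraries that do not enter the interaction's value but do enter its estimate of spread. At 48 h 269 of all genes were higher in KO (2.03%) and 287 lower (2.16%). Of the 10 called genes, 5 passed at 48 h. MX1 was higher in KO (348 to 364 RPKM in WT, 478 to 486 in KO; 0.44, limma adjusted p = 1.73e-05). IGF2 (−1.35, adjusted p = 1.24e-06), HERC5 (−0.54, adjusted p = 0.000892), IFIT1 (−0.31, adjusted p = 0.035) and OASL (−0.25, adjusted p = 0.0424) were lower. IFIT1, whose groups overlapped at 12 h, was at 269, 277 and 270 RPKM in WT at 48 h and at 222, 213 and 220 in KO, without overlap. The groups at 48 h were apart for 8 of 10 genes, against 20.2% of all genes. IFI44, IFIT3, IFIT2, ISG15 and INHBA had 48 h differences from −0.13 to −0.23 that did not pass.

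**Figure D3:**
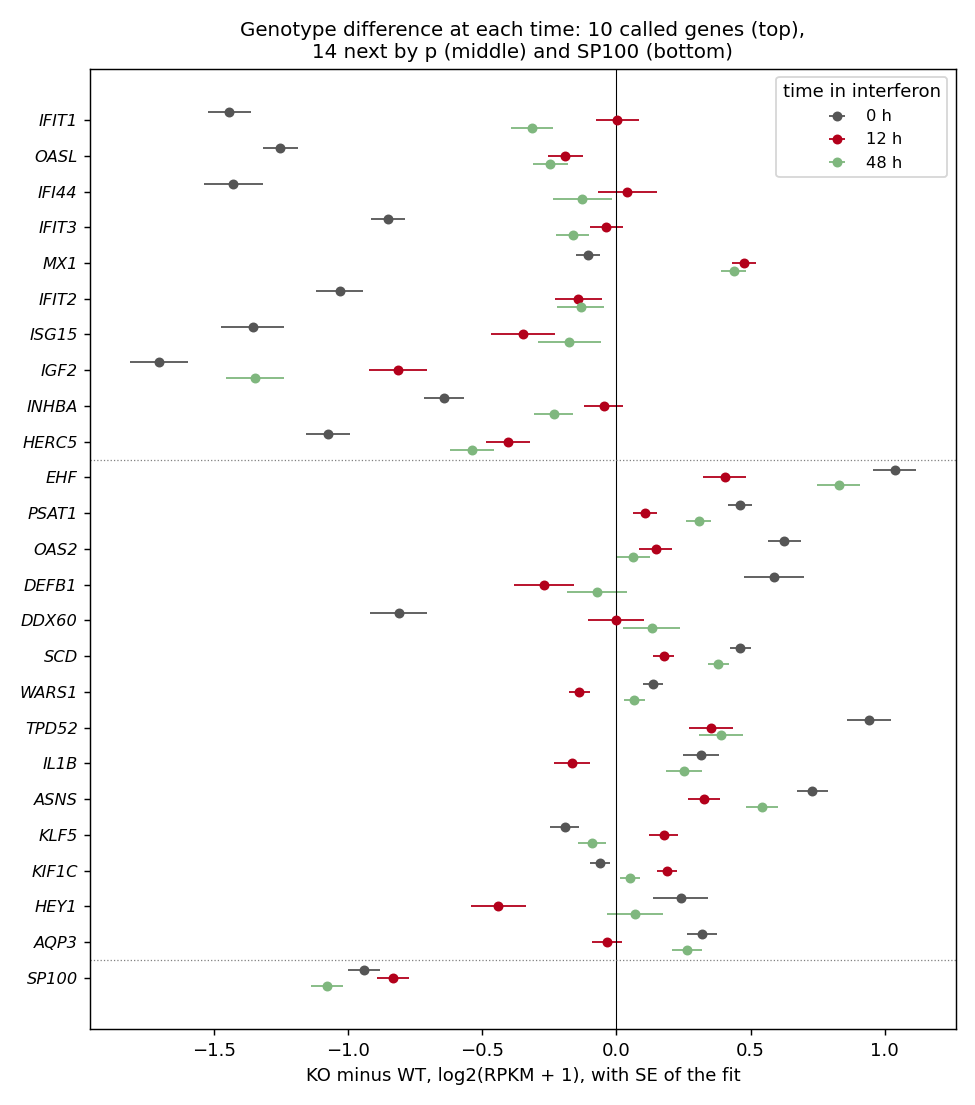
KO minus WT difference in log2(RPKM + 1) with its SE at 0, 12 and 48 h for the 10 called genes (top), the 14 genes next by p-value (middle) and SP100 (bottom). For 9 of the 10 called genes the 0 h point lies farthest from 0, while SP100 stays between −0.83 and −1.08 at all 3 times.

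The 8 interferon-stimulated genes among the 10 gave different pictures as a fold and as a gain. As a ratio of mean RPKM, IFIT1 rose 145-fold in WT and 659-fold in KO, OASL 30-fold and 127-fold, IFI44 53.8-fold and 263-fold, and HERC5 10.2-fold and 32.4-fold. As a gain in RPKM, IFIT1 rose by 622.5 in WT and 627.2 in KO, a difference of 4.73 with an SE of 12.1. IFI44 gained 202.8 and 212.2 RPKM (difference 9.41, SE 8.72) and IFIT3 gained 358.6 and 352.0 (difference −6.55, SE 7.5). OASL gained 80.1 RPKM in WT and 72.0 in KO (difference −8.17, SE 0.671), ISG15 gained 1013 and 801.6 (difference −212, SE 51.4), and HERC5 gained 20.2 and 16.2 (difference −3.99, SE 1.11). MX1 was larger in KO on both scales, at 1830-fold in WT and 3620-fold in KO and with gains of 579.8 and 807.6 RPKM (difference 228, SE 4.73). The MX1 folds divide by untreated means of 0.317 RPKM in WT and 0.223 in KO, from groups that overlapped. IFIT2 gained 53.3 RPKM in WT and 50.2 in KO (difference −3.11, SE 1.74). IGF2 lost 2.31 RPKM in WT and 0.153 in KO, and INHBA lost 3.87 in WT and gained 0.577 in KO. In all, the gain in RPKM was lower in KO for 5 of the 10 genes: OASL, IFIT3, IFIT2, ISG15 and HERC5, with the difference for IFIT3 smaller than its SE. No test was made on this scale.

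**Figure D4:**
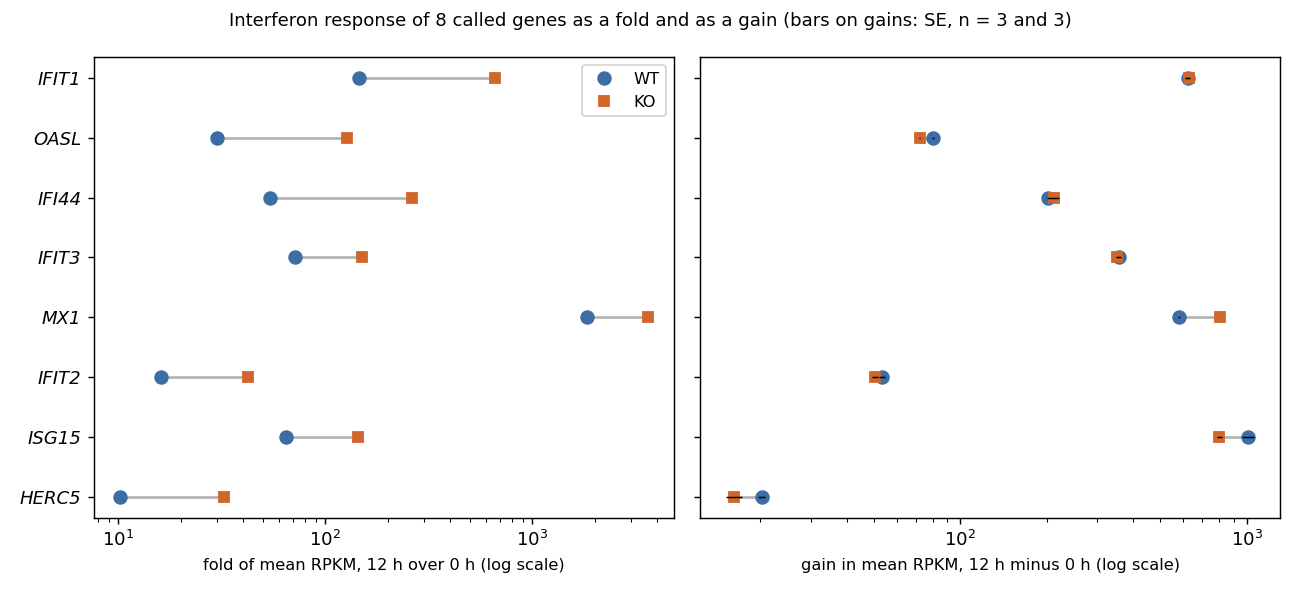
Interferon response at 12 h of the 8 called interferon-stimulated genes in WT (circles) and KO (squares), as a fold of mean RPKM on the left and as a gain in mean RPKM on the right, with the SE of each gain (3 libraries a group); both axes are log scales. The fold is higher in KO for all 8, while the gains of IFIT1, IFIT3 and IFI44 lie close together and those of OASL, ISG15 and HERC5 are lower in KO.

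The 14 genes with the next smallest p-values did not pass for the interaction in the main fit, with limma adjusted p from 0.0556 to 0.191. Of these, 11 had a value below 0 and 3 above 0. DDX60, a helicase that promotes RIG-I signalling, had the form of the IFIT genes: before interferon it was at 9.68, 8.57 and 11.4 RPKM in WT and at 4.64, 4.43 and 6.64 in KO, and at 12 h its mean was 159 in both genotypes. Its interaction was 0.81 (SE 0.150, adjusted p = 0.0556) and its 0 h difference −0.81 (adjusted p = 0.000169). In alternative fits the DDX60 interaction passed with a mean RPKM of at least 5 (limma adjusted p = 0.0355) and with the replicate block (0.0292). It also passed without WT 0 h replicate 2 (0.0478) and without KO 0 h replicate 3 (0.00104). The others above 0 were KLF5 (0.37) and KIF1C (0.25).

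Among the 11 below 0 were genes that were higher in KO before interferon. EHF, an epithelial ETS transcription factor, was at 10.6, 11.7 and 11.4 RPKM in untreated WT and at 25.6, 22.8 and 24.0 in untreated KO, and at 9.90, 8.63 and 8.26 in WT against 12.7, 11.7 and 11.9 in KO at 12 h. KO was higher without overlap at both times, by 1.04 at 0 h (limma adjusted p = 6.1e-07) and by 0.40 at 12 h (adjusted p = 0.0084), and the interaction was −0.63 (SE 0.114, adjusted p = 0.0556). TPD52 was likewise higher in KO, at a mean of 42.4 against 21.5 RPKM at 0 h and 39.0 against 30.4 at 12 h, with an interaction of −0.59. DEFB1, the antimicrobial peptide beta-defensin 1, was at 4.63, 3.54 and 4.22 RPKM in untreated WT and at 7.93, 6.15 and 6.07 in untreated KO. At 12 h DEFB1 was at 5.64, 6.45 and 6.59 in WT and at 5.60, 4.45 and 4.95 in KO, so the order of the genotypes was the reverse of that at 0 h, without overlap at either time. The DEFB1 difference passed at 0 h (0.59, adjusted p = 0.00499) and not at 12 h (−0.27, adjusted p = 0.227).

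PSAT1, an enzyme of serine synthesis, was at 54.0, 52.1 and 50.01 RPKM in untreated WT and at 72.1, 71.2 and 72.6 in untreated KO, and at 12 h at 34.1, 32.1 and 33.3 in WT and at 37.8, 34.7 and 34.9 in KO. Its interaction was −0.35 (SE 0.064, limma adjusted p = 0.0556). The mean of ASNS, asparagine synthetase, was 29.3 RPKM in WT and 49.1 in KO before interferon, against 15.2 and 19.3 at 12 h, with an interaction of −0.40 (adjusted p = 0.113). The ASNS difference passed at 0 h (0.73), at 12 h (0.33) and at 48 h (0.54). WARS1, the tryptophanyl-tRNA synthetase, rose in both genotypes, from a mean of 118 to 254 RPKM in WT and from 130 to 230.4 in KO, with an interaction of −0.28. The remaining genes were SCD (−0.29), a desaturase of fatty acid synthesis, the cytokine IL1B (−0.48), the Notch target HEY1 (−0.68) and the water channel AQP3 (−0.36).

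The 14 divide by time as 6 called at 0 h only, 2 at 12 h only (KIF1C and HEY1), 4 at both times (EHF, SCD, TPD52 and ASNS) and 2 at neither (WARS1 and KLF5). In 11 of 14 the larger difference was at 0 h. Of the 10 that were called at 0 h, 9 were higher in KO, DDX60 being the exception. Those shares describe genes picked by the interaction and are not a test of it.

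Other genes of the interferon pathway were followed in 12 lists with 97 tested members, chosen with earlier results of these data known. In both genotypes 83 of the 97 rose in interferon, where 15.1% of all genes rose in WT and 16.0% in KO. For the interaction 8 of 97 were called (8.25%, against 0.0753% of all genes), all above 0. At an unadjusted p under 0.05, 19 were above 0 and 5 below 0, against 2.27% and 3.49% of all genes. The median interaction was 0.04 against −0.01 over all genes. At 0 h 19 of 97 were lower in KO (19.6%, against 2.07% of all genes). Higher in KO at 0 h were 2 (2.06%, against 2.82%: USP18 and OAS2), and the median difference was −0.03 against 0.02. At 12 h 4 were lower (4.12%, against 2.02% of all genes: IFITM3, IFITM2, HERC5 and HLA-F) and 3 higher (3.09%, against 1.60%: MX1, IRF7 and CXCL1), with a median of −0.04 against 0.01. At 48 h 13 were lower (13.4%, against 2.16%) and 2 higher (2.06%, against 2.03%). Of the 97, 18 were called at 0 h only, 4 at 12 h only, 3 at both times with the same sign, and 72 at neither. Most of the list members thus had no called difference between the genotypes at either time.

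**Figure D5:**
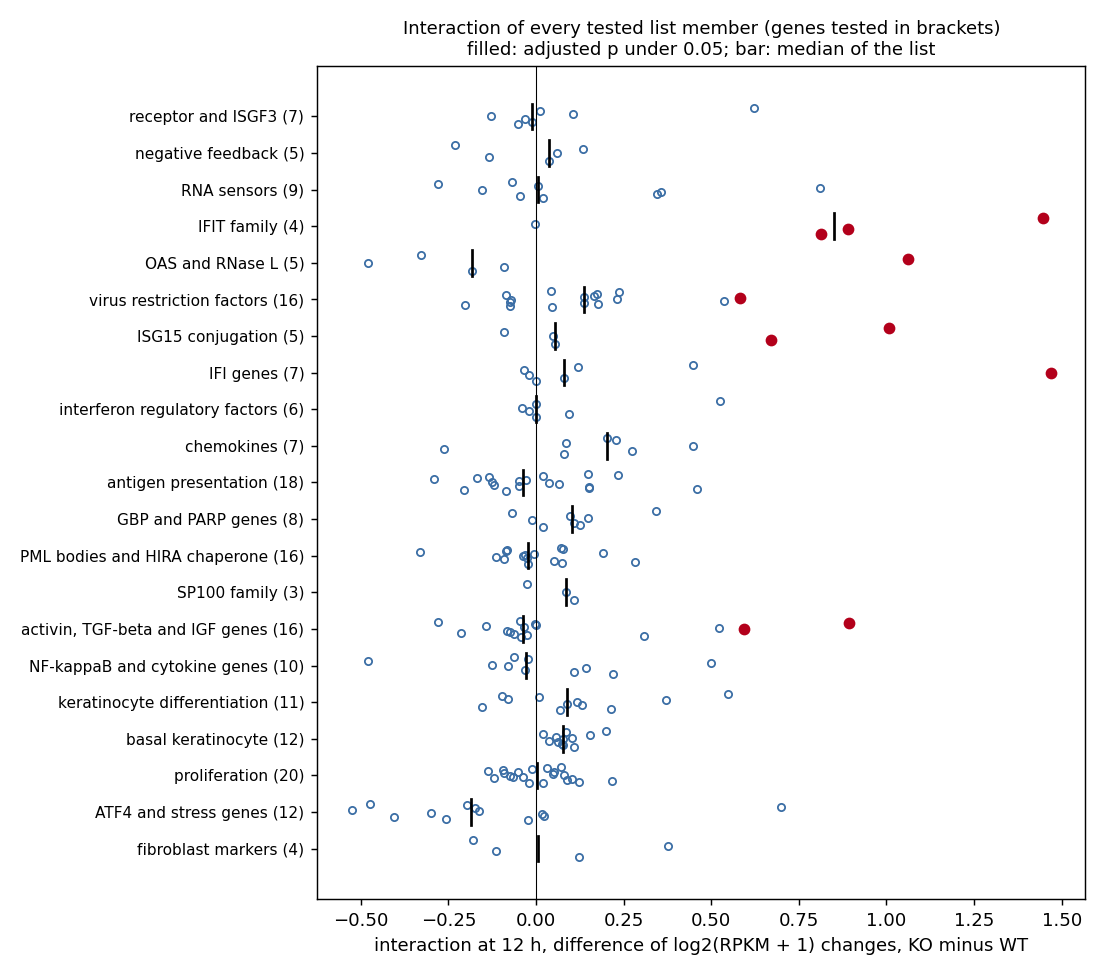
Interaction at 12 h (x axis, difference of log2(RPKM + 1) changes, KO minus WT) of every tested gene of 21 lists; each point is a gene, filled where its adjusted p was under 0.05, and bars are list medians. The IFIT list has the highest median (0.85), the ATF4 list the lowest (−0.19), and most lists are centred near 0.

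In the receptor and ISGF3 list none of 7 genes was called for the interaction. IRF9, the DNA-binding subunit of ISGF3, was the member that differed at 0 h, at a mean of 4.01 RPKM in KO against 6.12 in WT (−0.53, limma adjusted p = 0.0109), and was at 77.3 against 72.1 at 12 h. The IRF9 interaction was 0.62 (SE 0.159, adjusted p = 0.379). USP18, the feedback inhibitor of the receptor, was higher in untreated KO at 1.87 against 1.3 RPKM (0.32, adjusted p = 0.000629), and was at 81.1 against 76.4 at 12 h, with an interaction of −0.23 (adjusted p = 0.571).

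Among 9 RNA sensors and signal transducers 3 were lower in untreated KO, where 2.07% of all genes were, and none was called at 12 h. These were DDX60, RIGI and DHX58. RIGI, the RIG-I receptor for viral RNA, was at 3.02 RPKM in untreated KO against 4.36 in WT (−0.42, limma adjusted p = 0.000198), with an interaction of 0.35 (adjusted p = 0.191). DHX58 was at 0.173 against 1.02 RPKM (−0.78, adjusted p = 0.000691), with an interaction of 0.36 (adjusted p = 0.866). With a pseudocount of 0.1 the DHX58 interaction was 1.61 and passed (adjusted p = 0.04).

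The 16 virus restriction factors gave 1 call for the interaction, MX1, against 0.0753% of all genes, and a median of 0.14. The membrane proteins IFITM1, IFITM2 and IFITM3, which block virus entry, were lower in untreated KO, IFITM3 at a mean of 112 against 161 RPKM (−0.52, limma adjusted p = 8.83e-06). IFITM3 stayed lower at 12 h, at 850 against 1037 RPKM (−0.29, adjusted p = 0.00382), and so did IFITM2, at 247 against 326 (−0.40, adjusted p = 0.00332). Their interactions of 0.23 and 0.17 did not pass. RSAD2, viperin, was at 82.0 RPKM in WT and 98.2 in KO at 12 h with an interaction of 0.54 (adjusted p = 0.344).

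IRF7, a transcription factor that amplifies interferon production, was higher in KO at 12 h. Its mean before interferon was 0.540 RPKM in WT and 0.943 in KO, and at 12 h it was 28.4 in WT and 52.2 in KO. The difference was 0.33 at 0 h (limma adjusted p = 0.123), 0.86 at 12 h (adjusted p = 0.000263) and 0.63 at 48 h (adjusted p = 0.00352), and the interaction of 0.53 did not pass (SE 0.161, adjusted p = 0.588). The chemokine gene CXCL1 was higher in KO at 12 h at means of 2.55 against 1.12 RPKM (0.74, adjusted p = 0.0074), with an interaction of 0.45 (adjusted p = 0.858). HLA-F, a nonclassical class I molecule, was lower in KO at 12 h at 16.2 against 29.5 RPKM (−0.83, adjusted p = 0.0044). Before interferon HLA-F was at 1.48 against 2.48 (−0.54, adjusted p = 0.0533), and its interaction was −0.29 (adjusted p = 0.942). None of 18 antigen presentation genes was called for the interaction, with a median of −0.04. The 8 GBP and PARP genes and the 7 chemokine genes likewise gave no call, with medians of 0.10 and 0.20.

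Among the 16 genes of PML bodies and the HIRA histone chaperone none was called for the interaction or at either time, and the median interaction was −0.02. PML, the scaffold of the bodies that SP100 belongs to, had means of 28.9 RPKM in WT and 24.9 in KO before interferon and of 73.5 and 72.9 at 12 h, with an interaction of 0.19 (SE 0.088, limma adjusted p = 0.858). Of the 12 ATF4 and stress genes 7 were below 0 at an unadjusted p under 0.05 (HERPUD1, ASNS, TRIB3, ATF4, CHAC1, DDIT4 and DDIT3), against 3.49% of all genes, and none passed after adjustment. This list too was chosen with earlier results of these data known, so its shares are not a test. The list's median was −0.19, and 2 of its genes, ASNS and TRIB3, were higher in untreated KO, where 2.82% of all genes were.

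Markers of the cells and of their state were read beside these results. None of 12 basal keratinocyte, 11 differentiation, 20 proliferation or 10 NF-kappaB and cytokine genes was called for the interaction, with medians of 0.08, 0.09, 0.004 and −0.03. At 0 h 2 of the 12 basal genes, COL17A1 (−0.20) and LAMB3 (−0.37), were lower in KO, where 2.07% of all genes were. So was 1 of the 11 differentiation genes, SPRR1A (6.67 against 13.0 RPKM, −0.85, limma adjusted p = 0.00357). Higher in KO at 0 h, where 2.82% of all genes were, were 2 of the 20 proliferation genes, CCNA2 (0.14) and BUB1 (0.19). The cytokine IL1B (0.31), 1 of the 10 genes of its list, was also higher. Of the 2 immune cell markers tested, CD68, a macrophage marker also found in other cells, was lower in untreated KO. It was at 15.0 against 19.5 RPKM (−0.35, limma adjusted p = 0.0101). The 0 h difference of the other marker was 0.018 and was not called. The summed level of the fibroblast markers was 394 to 409 RPKM in untreated WT, 269 to 272 in untreated KO, 325 to 332 in WT at 12 h and 233 to 248 in KO at 12 h. Nearly all of that was VIM, vimentin, at 384 against 256 RPKM at 0 h (−0.59, limma adjusted p = 2.91e-08) and 314 against 228 at 12 h, and it was the 1 gene of 4 tested that passed at 0 h. The other 3 did not pass at 0 h or at 12 h: the 0 h differences were −0.10 for COL1A1 (1.67 RPKM in WT, 1.48 in KO), −0.50 for S100A4 (10.7 and 7.38) and 0.05 for FAP (5.74 and 5.98), and at 12 h they were 0.28, −0.68 and −0.06. The interaction of VIM was 0.12 (adjusted p = 0.791). The part of these markers in the interferon gene differences was not tested. The summed melanocyte markers were at 0.98 to 2.34 RPKM over the 4 groups.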

How the data were processed

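RNA of 18 libraries was sequenced from stranded mRNA, per the labels' protocols. The authors deposited 1 table of RPKM values for 16472 Ensembl gene IDs. The submitters' processing notes list cutadapt, STAR 2.6.1, RSEM 1.3.0, limma 3.50.3 and the build hg19, without their roles. The annotation, the gene filter and the total used for scaling are not given in the sources used here. No gene coordinates are given; promoters and their coordinates come from RefSeq on GRCh38.p14, used by symbol.

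From this table log2(RPKM + 1) was computed. A gene was tested if 3 or more libraries reached an RPKM of 1, which left 13280 genes; 12401 of them had a symbol in a table of gene IDs. A cell-means model over all 18 libraries was fitted with limma 3.58.1 in R 4.3.3, using a mean-dependent prior for the variances, and checked on simulated data. P-values are two-sided, with Benjamini-Hochberg adjustment in each comparison across the whole set of tested genes and a threshold of 0.05. A gene called for the interaction was assigned to 0 h, 12 h, both or neither by its calls for KO against WT at those times.

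The total number of reads is unknown, so no counting interval was computed. Relative depth ranged from 0.846 to 1.262, from the whole-read steps of 698 low genes; 96.1% of library pairs lay within 3% of it.

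The genes named are SP100, every gene called for the interaction, the genes with the next smallest p-values up to 25 in all, and members of the gene lists where a list is described. The comparison, the lists and the tests were chosen with earlier results of these data known. All 10 called genes are in a list, so shares of calls in the lists describe their members and do not test them. Listed genes that did not pass the filter on low values (for example CXCL9, GBP5, SOCS1, SP140, ZBP1 and ICAM1) were not tested, and listed genes outside the table were not analysed here. Some list members are not reported here by name.

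The alternatives were the 12 libraries of the interaction alone in the model, median-of-ratios scaling, a pseudocount of 0.1, testing every gene, testing genes whose mean RPKM was 5 or more, a prior without trend, a block for replicate number, the omission of each of 12 libraries, and the gain in RPKM in place of the log2 scale.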

Additional observations from a re-analysis of the deposited data

Results flagged for a closer look

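Each of the 10 called genes had an interferon change at 12 h that differed between WT and KO by the test of the difference itself, the limma interaction term with 3 libraries in each of the 4 groups. On the log2(RPKM + 1) scale, KO change minus WT change, the differences were 1.47 for IFI44, 1.45 for IFIT1, 1.06 for OASL, 1.01 for ISG15, 0.89 for IGF2, 0.89 for IFIT2, 0.81 for IFIT3, 0.67 for HERC5, 0.59 for INHBA and 0.58 for MX1. The 10 genes were picked by this same test, so these values restate their calls. The calls of ISG15, IGF2, INHBA and HERC5 were lost in 12, 15, 12 and 15 alternative fits.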

How the results depend on the processing

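The interactions of IFIT1, OASL, IFI44, IFIT3 and IFIT2 passed in all 19 alternative fits and that of MX1 in 18, the exception being a pseudocount of 0.1. The number of genes called was 6 with only the 12 libraries in the model and 6 to 9 when single libraries were left out. It was 6 without KO 0 h replicate 1, without KO 0 h replicate 2 and without KO 12 h replicate 3, where IFIT1, OASL, IFI44, IFIT3, MX1 and IFIT2 were left. Besides the filter on mean RPKM, other fits called genes below 0. Above 0 were 7 of 8 without WT 0 h replicate 1, WT 0 h replicate 3 or WT 12 h replicate 2. So were 6 of 7 without KO 12 h replicate 1 and 9 of 10 with a pseudocount of 0.1. Over the 12 omissions the adjusted p of ISG15 ran from 0.00632 to 0.111, of IGF2 from 0.031 to 0.131, of INHBA from 0.0222 to 0.137 and of HERC5 from 0.0158 to 0.161. ISG15 kept its call only without WT 0 h replicate 3, KO 0 h replicate 3 or WT 12 h replicate 1. INHBA did so only without WT 0 h replicate 1, KO 0 h replicate 3 or WT 12 h replicate 3, IGF2 only without WT 12 h replicate 2, and HERC5 only without KO 12 h replicate 2.

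KO against WT gave 390 to 655 calls at 0 h and 311 to 490 at 12 h when single libraries were left out. The 0 h count was lowest without WT 0 h replicate 2 (390), KO 0 h replicate 2 (397), KO 0 h replicate 1 (402) and WT 0 h replicate 3 (418), and the 12 h count without WT 12 h replicate 1 (311) and KO 12 h replicate 1 (315). Genes of the interaction called at 0 h only numbered 11 with a mean RPKM of at least 5, those called at 12 h only numbered 0 with a pseudocount of 0.1 and 1 to 2 under the omissions, the 2 being without WT 12 h replicate 2. Those called at both times numbered 0 with a pseudocount of 0.1, with median-of-ratios scaling and with only the 12 libraries, 1 with no filter, and 0 to 2 under the omissions. Measured as a gain in RPKM, the sign of the interaction was the opposite for OASL (−8.17), ISG15 (−212), HERC5 (−3.99), IFIT2 (−3.11, SE 1.74) and IFIT3 (−6.55, SE 7.5); no test was made on this scale, and the IFIT3 difference is under its SE. The causes of these changes were not tested.

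Deviations of the 18 same-numbered pairs of libraries correlated at −0.094 to 0.08, none above 0.1, so no shared effect of the replicate number was seen. With 3 libraries a group this cannot show whether same-numbered cultures were handled together, and the labels do not say. With the number as a block, 7 genes were called for the interaction and 0 of them at both times, 533 genes were called at 0 h and 394 at 12 h. Median-of-ratios scaling moved the median of all interactions from −0.01 to −0.0001. For KO against WT at 0 h, at 12 h and at 48 h, for interferon in each genotype, and for the sum of the differences, the count of calls stayed within 1.5-fold under every planned or added alternative other than the omissions named. The model with only the 12 libraries gives no value at 48 h. Alternatives on the 48 h difference and on the sum were added after the data were seen. The depth of the libraries is unknown, and values near or under 1 RPKM, such as those of MX1, IGF2, OASL, IFI44 and HERC5 in untreated KO, depend on the pseudocount.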
